A study of Mus musculus with 20 samples.

Results

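The genes that bring pyruvate into mitochondria and run the tricarboxylic acid (TCA) cycle were followed in the visceral fat of F3 male mice. The list holds 34 genes of the 37074 gene names on the array. They were chosen by symbol for their role, by a rule that sets no condition on a measured value, though with earlier results of these data known. All 34 were among the 25618 genes that could be tested, through 71 of their 72 probes. Gene expression was measured on 20 one-colour Agilent arrays, each with RNA of epididymal fat of 1 mouse. All mice were C57bl/6J. Ref mice (labelled STD Cont, n = 6) came from the control lineage, which received oleic oil over 3 generations, and ate a low-fat diet with 10% of energy from fat. HFoleic mice (HFD Cont, n = 6) came from the same lineage and ate a high-fat, high-sucrose diet with 45% of energy from fat. HFepa mice (HFD O3, n = 8) ate that same obesogenic diet but came from a lineage that had received fish oil rich in eicosapentaenoic acid (EPA). Each oil made up 1% of the chow and the challenge lasted 17 weeks. No mice of the EPA lineage on the low-fat diet were analysed here, so effects of lineage alone cannot be told apart from its effects under the obesogenic diet. The level of a gene is the log2 of its normalised median intensity at its brightest probe. A difference between groups is the log2 fold change with its standard error (SE), from limma, with p adjusted over all probes tested. "Fell" and "rose" are used of genes whose adjusted p was below 0.05.

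Pyruvate made in the cytosol enters the mitochondrial matrix through a carrier and is turned into acetyl-CoA by the pyruvate dehydrogenase complex, which kinases switch off and phosphatases switch on. Citrate synthase joins acetyl-CoA to oxaloacetate, and the cycle then oxidises the carbon and feeds electrons to the respiratory chain. In adipocytes citrate also leaves the mitochondria as the carbon source of new fatty acids, while pyruvate carboxylase refills the cycle and phosphoenolpyruvate carboxykinase draws from it to make the glycerol backbone of triglycerides. The tissue markers matched the label, since Adipoq, Cidec and Fabp4, which define mature adipocytes, had mean log2 levels of 18.13, 18.51 and 18.49 in Ref mice. Of 6 epididymal markers, which would mark tissue attached to this depot, only Lcn9 was bright enough to test, and its intensity was 274 in HFepa 2 and 48 to 56 in the other mice.

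In HFoleic vs. Ref, 13 of the 34 genes fell, 2 rose and 19 did not pass the test. Over all tested genes 16.7% fell and 15.2% rose in the same comparison. At an unadjusted p below 0.05, limma gave 18 lower and 2 higher, beside 22.9% and 19.3% of all tested genes. The median log2 fold change of the 34 genes was -0.23, beside -0.04 over all tested genes, and 27 of the 34 were negative. The groups did not overlap for 5 genes that were below all Ref mice and for 2 that were above them, where 7.08% and 6.93% of all tested genes were so separated. In HFepa vs. Ref, only Pdk1 fell and none rose at the brightest probe, beside 1.41% and 1.04% of all tested genes. The median was -0.16, beside -0.02 over all tested genes, and 29 of the 34 were negative. At an unadjusted p below 0.05, 11 were lower and 2 higher, beside 11.5% and 10% of all tested genes. Pdk1 was also the only one of the 34 whose groups did not overlap, beside 0.667% of all tested genes below and 0.375% above. In HFepa vs. HFoleic, none of the 34 passed the limma test (smallest adjusted p = 0.117), as for 0% of all tested genes by their brightest probe. With the slide as a block, Pdk2 (0.82, adjusted p = 0.0433), Idh1 (-0.66, adjusted p = 0.029) and Sucla2 (-0.49, adjusted p = 0.035) passed, and over the whole array 683 probes were lower and 612 higher. At an unadjusted p below 0.05, limma gave 2 of the 34 lower and 6 higher in that comparison, beside 10% and 10.8% of all tested genes. The median was 0.07, beside 0.01 over all tested genes. No gene of the 34 separated these groups, beside 0.203% of all tested genes below and 0.152% above. The 3 comparisons share mice, the first pair sharing the Ref mice, and are therefore given side by side.

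**Figure D1:**
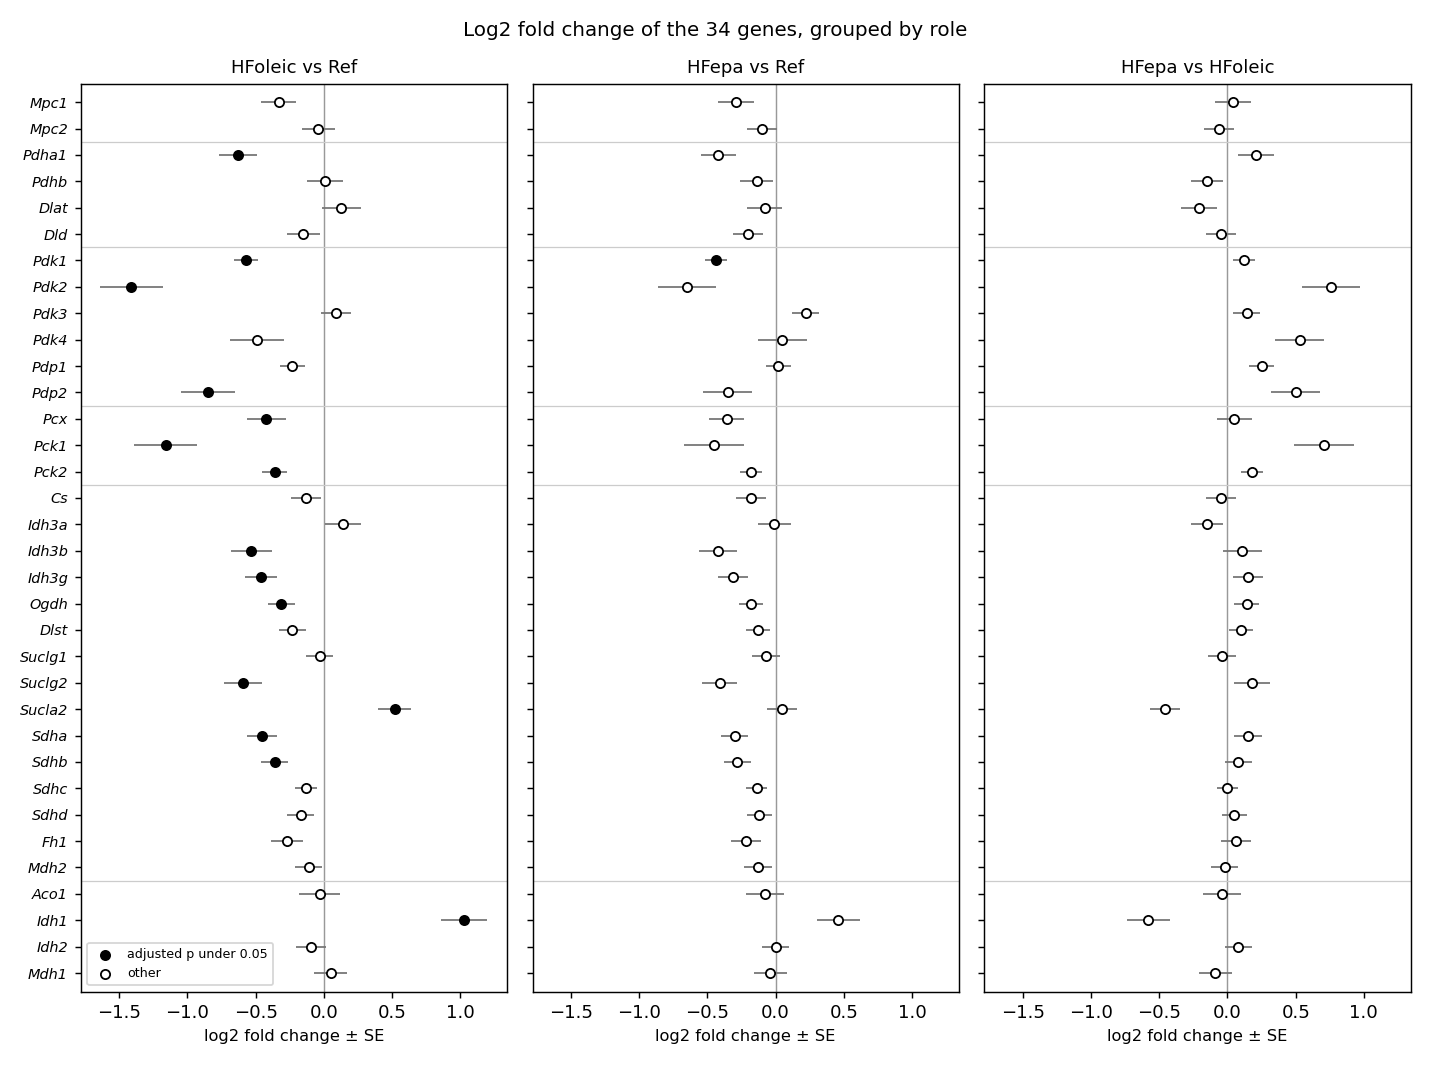
Log2 fold change (x axis, bars are SE) of each of the 34 genes (y axis, grouped by role) in the 3 comparisons named above the panels; filled points have an adjusted p below 0.05. In HFoleic vs. Ref, 13 filled points lie left of 0 and those of Sucla2 and Idh1 lie right of it, while Pdk1 is the filled point in HFepa vs. Ref and HFepa vs. HFoleic has none.

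Entry of pyruvate. The carrier is made of Mpc1 and Mpc2, and neither passed the test at its brightest probe. Mpc1 had log2 fold changes of -0.33 in HFoleic vs. Ref (adjusted p = 0.0713) and -0.29 in HFepa vs. Ref. Its other probes gave -0.43 and -0.54 in HFoleic vs. Ref, with adjusted p of 0.0311 and 0.00118, so the call of Mpc1 depended on the probe. Mpc2 changed by -0.04 at its brightest probe and by -0.44 (adjusted p = 0.00299) at a much dimmer one.

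Within the pyruvate dehydrogenase complex only the catalytic E1 alpha subunit changed at its brightest probe. Pdha1 (probe at chrX:156560573-156560632, mm9) ran from 13.56 to 13.96 in Ref mice (median 13.73), from 12.94 to 13.52 in HFoleic mice (median 13.07) and from 12.83 to 13.86 in HFepa mice (median 13.40). Every HFoleic mouse was below every Ref mouse, whereas 1 of the 8 HFepa mice reached into the Ref range. The log2 fold change was -0.63 ± 0.14 (SE) in HFoleic vs. Ref (adjusted p = 0.00225), -0.42 in HFepa vs. Ref (adjusted p = 0.0796) and 0.21 in HFepa vs. HFoleic. A dimmer Pdha1 probe gave -0.34 in HFoleic vs. Ref (adjusted p = 0.0179). Pdhb, the E1 beta subunit that pairs with Pdha1, differed by 0.01 in HFoleic vs. Ref. Dlat, the E2 core, and Dld, the E3 subunit shared with oxoglutarate dehydrogenase, differed by 0.13 and -0.15, and none of these 3 passed the test. A dim probe of Pdhb was lower by -0.30 (adjusted p = 0.00348) while its other dim probe gave 0.21.

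The enzymes that switch the complex held the largest fall of all 34 genes. Pdk2, a kinase that inactivates the complex and is widely expressed, ranged from 12.23 to 12.75 in Ref mice with a median of 12.72. Its range was 10.77 to 11.78 in HFoleic mice (median 11.11) and 11.18 to 12.93 in HFepa mice (median 11.95). HFoleic and Ref mice did not overlap, and of the 8 HFepa mice 2 were above the lowest Ref mouse. Pdk2 (chr11:94887669-94887728, mm9) fell by 1.41 ± 0.23 (SE) on the log2 scale in HFoleic vs. Ref (adjusted p = 0.000476). In HFepa vs. Ref it had -0.65 (adjusted p = 0.098) and in HFepa vs. HFoleic it was 0.76 (adjusted p = 0.119).

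Pdk1, the kinase known as a target of hypoxia signalling, was the only gene of the list that fell in both obesogenic groups. It ran from 11.30 to 11.66 in Ref mice (median 11.45), from 10.83 to 11.10 in HFoleic mice (median 10.90) and from 10.72 to 11.24 in HFepa mice (median 11.08). All 14 mice on the obesogenic diet were below all 6 Ref mice. The log2 fold changes were -0.57 ± 0.09 (SE) in HFoleic vs. Ref (adjusted p = 0.000447) and -0.44 ± 0.08 in HFepa vs. Ref (adjusted p = 0.0157). A dimmer probe of the same gene gave -0.64 and -0.52 (adjusted p = 0.00014 and 0.00328). Its remaining dim probes gave -0.33, -0.38 and -0.20 in HFoleic vs. Ref (limma adjusted p = 0.00926, 0.103 and 0.134). In HFepa vs. Ref those probes gave -0.20, -0.35 and -0.16, and none passed (adjusted p = 0.186, 0.219 and 0.33). In HFepa vs. Ref the call at the brightest probe was lost when only these 2 groups were fitted (-0.44, adjusted p = 0.0539). It was also lost with the replicate number as a block (-0.45, adjusted p = 0.0907).

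Pdp2, a phosphatase that reactivates the complex, spanned 15.46 to 16.25 in Ref mice (median 16.06), 14.61 to 15.67 in HFoleic mice (median 15.04) and 15.18 to 16.27 in HFepa mice (median 15.51). Only the highest HFoleic mouse reached into the Ref range. The gene fell by 0.85 ± 0.20 (SE) on the log2 scale in HFoleic vs. Ref (adjusted p = 0.00334), but a second, much dimmer probe of Pdp2 gave 0.03. Pdp1, the other phosphatase, differed by -0.23 (adjusted p = 0.0664). Pdk4, the kinase induced by fasting and fatty acids, was at -0.49 in HFoleic vs. Ref (adjusted p = 0.0676) and 0.05 in HFepa vs. Ref. Pdk3 differed by 0.09 in HFoleic vs. Ref.

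Entry and exit of four-carbon units. At their brightest probes, all 3 genes of this role fell in HFoleic vs. Ref and none passed the test in HFepa vs. Ref. Pck1, the cytosolic phosphoenolpyruvate carboxykinase that serves glycerol synthesis in fat, was narrow in Ref mice, from 17.44 to 17.60 with a median of 17.52. It ran from 15.51 to 17.40 in HFoleic mice (median 16.35) and from 16.21 to 17.51 in HFepa mice (median 17.17). All HFoleic mice were below all Ref mice, although the HFoleic mouse with replicate number 1, at 17.40, lay just under the lowest Ref mouse. Pck1 (chr2:172984307-172984366, mm9) fell by 1.16 ± 0.23 (SE) on the log2 scale (adjusted p = 0.0015), while HFepa vs. Ref gave -0.45 (adjusted p = 0.251) and HFepa vs. HFoleic 0.71 (adjusted p = 0.127).

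Pck2, its mitochondrial counterpart, ran from 11.12 to 11.70 in Ref, 10.98 to 11.27 in HFoleic and 11.03 to 11.44 in HFepa mice, with medians of 11.53, 11.13 and 11.35. It fell by 0.36 ± 0.09 (SE) on the log2 scale in HFoleic vs. Ref (adjusted p = 0.00447), with 1 Ref mouse inside the HFoleic range. A much dimmer probe of Pck2 gave -0.10 in that comparison and did not pass (limma adjusted p = 0.378). Pcx, the pyruvate carboxylase, covered 15.49 to 16.49 in Ref, 15.32 to 15.81 in HFoleic and 15.21 to 15.86 in HFepa mice (medians 16.04, 15.61 and 15.73). Its fall of 0.42 ± 0.14 (SE) in HFoleic vs. Ref (adjusted p = 0.0297) was the least secure of the 15 calls. It lost significance in 5 of the 20 fits that left out 1 mouse, namely Ref 4, 5 or 7 or HFoleic 5 or 6, with adjusted p between 0.0543 and 0.0776.

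Of the 15 genes of cycle enzymes, 6 fell, 1 rose and 8 did not pass the test in HFoleic vs. Ref. Calls did not cover whole enzymes. In isocitrate dehydrogenase 3, which makes the NADH of the first oxidation, the regulatory subunits Idh3b and Idh3g fell and the catalytic Idh3a did not. Idh3b ran from 12.38 to 12.66 in Ref mice (median 12.54), 11.77 to 12.37 in HFoleic mice (median 11.95) and 11.40 to 12.51 in HFepa mice (median 12.22). Its groups did not overlap in HFoleic vs. Ref, where the log2 fold change was -0.53 ± 0.15 (SE, adjusted p = 0.0126). For Idh3g the ranges were 14.45 to 15.04, 14.06 to 14.53 and 13.96 to 14.68 with medians of 14.69, 14.19 and 14.46, and the log2 fold change was -0.46 ± 0.12 (adjusted p = 0.00565). Idh3a differed by 0.14 in the same comparison.

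The next step is taken by 2-oxoglutarate dehydrogenase. Ogdh, its E1 subunit, ranged from 14.69 to 15.26 in Ref, 14.50 to 14.87 in HFoleic and 14.48 to 15.01 in HFepa mice (medians 15, 14.67 and 14.84). Its fall by 0.31 ± 0.10 (SE) on the log2 scale (adjusted p = 0.0202) was lost without the mouse Ref 5 or HFoleic 4 (adjusted p = 0.0529 and 0.0546). Dlst, the E2 subunit, differed by -0.23 at its brightest probe (adjusted p = 0.0761). A pair of dimmer Dlst probes gave -0.55 and -0.49 (adjusted p = 0.000452 and 0.00148) and the remaining dim probe gave -0.04. The probe at -0.55 was also lower in HFepa vs. Ref (-0.31, adjusted p = 0.0462).

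Succinyl-CoA synthetase showed subunits that moved in opposite directions. The enzyme joins the shared alpha subunit Suclg1 to either of its beta subunits, Suclg2, which makes GTP, or Sucla2, which makes ATP. Suclg2 (chr6:95424712-95424771, mm9) ran from 10.47 to 10.89 in Ref mice (median 10.78), 9.90 to 10.49 in HFoleic mice (median 10.13) and 9.74 to 10.82 in HFepa mice (median 10.33). The highest HFoleic mouse only just reached the lowest Ref mouse, and the log2 fold change was -0.59 ± 0.14 (SE, adjusted p = 0.00416). Dimmer Suclg2 probes gave -0.36, -0.35, -0.08 and -0.10 (limma adjusted p = 0.0692, 0.0167, 0.55 and 0.385). Over all alternatives the log2 fold change of Suclg2 ranged from -0.66 to -0.30, and the call held in each. Sucla2 (chr14:73995798-73995857, mm9) was higher in all HFoleic mice, at 11.29 to 11.60 (median 11.45), than in all Ref mice, at 10.66 to 11.25 (median 10.90). HFepa mice ran from 10.70 to 11.41 with a median of 10.94, near that of Ref mice. Sucla2 rose by 0.52 ± 0.12 (SE) on the log2 scale in HFoleic vs. Ref (adjusted p = 0.00277), with 0.05 in HFepa vs. Ref and -0.46 in HFepa vs. HFoleic (adjusted p = 0.117). A very dim second probe of Sucla2 gave -0.16, and with the mean of both probes the rise was 0.18 (adjusted p = 0.17). Suclg1 differed by -0.03 in HFoleic vs. Ref at its brightest probe. A dimmer probe of Suclg1 gave -0.23 in that comparison (limma adjusted p = 0.0228), so its call depended on the probe.

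Succinate dehydrogenase, which is also complex II of the respiratory chain, had both catalytic subunits lowered. Sdha, the flavoprotein, ran from 14.11 to 14.59 in Ref, 13.70 to 14.17 in HFoleic and 13.55 to 14.21 in HFepa mice (medians 14.36, 13.87 and 14.14). It fell by 0.45 ± 0.11 (SE) on the log2 scale in HFoleic vs. Ref (adjusted p = 0.00436), and all 3 of its other probes passed as well, at -0.45, -0.58 and -0.30. Sdhb, the iron-sulphur subunit, ranged from 15.25 to 15.70, 14.94 to 15.48 and 14.85 to 15.36 (medians 15.47, 15.05 and 15.26) and fell by 0.36 ± 0.10 (adjusted p = 0.0118). The membrane anchors Sdhc and Sdhd differed by -0.13 and -0.17 and did not pass. The remaining enzymes, Cs, Fh1 and Mdh2, which are citrate synthase, fumarase and mitochondrial malate dehydrogenase, differed by -0.13, -0.27 and -0.11 without passing the test.

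Among cytosolic and NADP-linked counterparts, Idh1 rose and 3 genes did not pass the test. Idh1, the cytosolic isocitrate dehydrogenase that supplies NADPH, was at 8.91 to 10 in Ref mice (median 9.53), 10.36 to 10.90 in HFoleic mice (median 10.47) and 9.31 to 10.39 in HFepa mice (median 9.97). Every HFoleic mouse exceeded every Ref mouse and HFepa mice lay between and across them. Idh1 (chr1:65206035-65206094, mm9) rose by 1.03 ± 0.17 (SE) on the log2 scale in HFoleic vs. Ref (adjusted p = 0.000532). Its dimmer probe gave 0.50 (adjusted p = 0.00493). The log2 fold changes were 0.46 in HFepa vs. Ref (adjusted p = 0.121) and -0.58 in HFepa vs. HFoleic (adjusted p = 0.119). Idh2, Mdh1 and Aco1 differed by -0.09, 0.05 and -0.03 in HFoleic vs. Ref, although a dimmer probe of Mdh1 gave -0.34 (adjusted p = 0.00886).

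**Figure D2:**
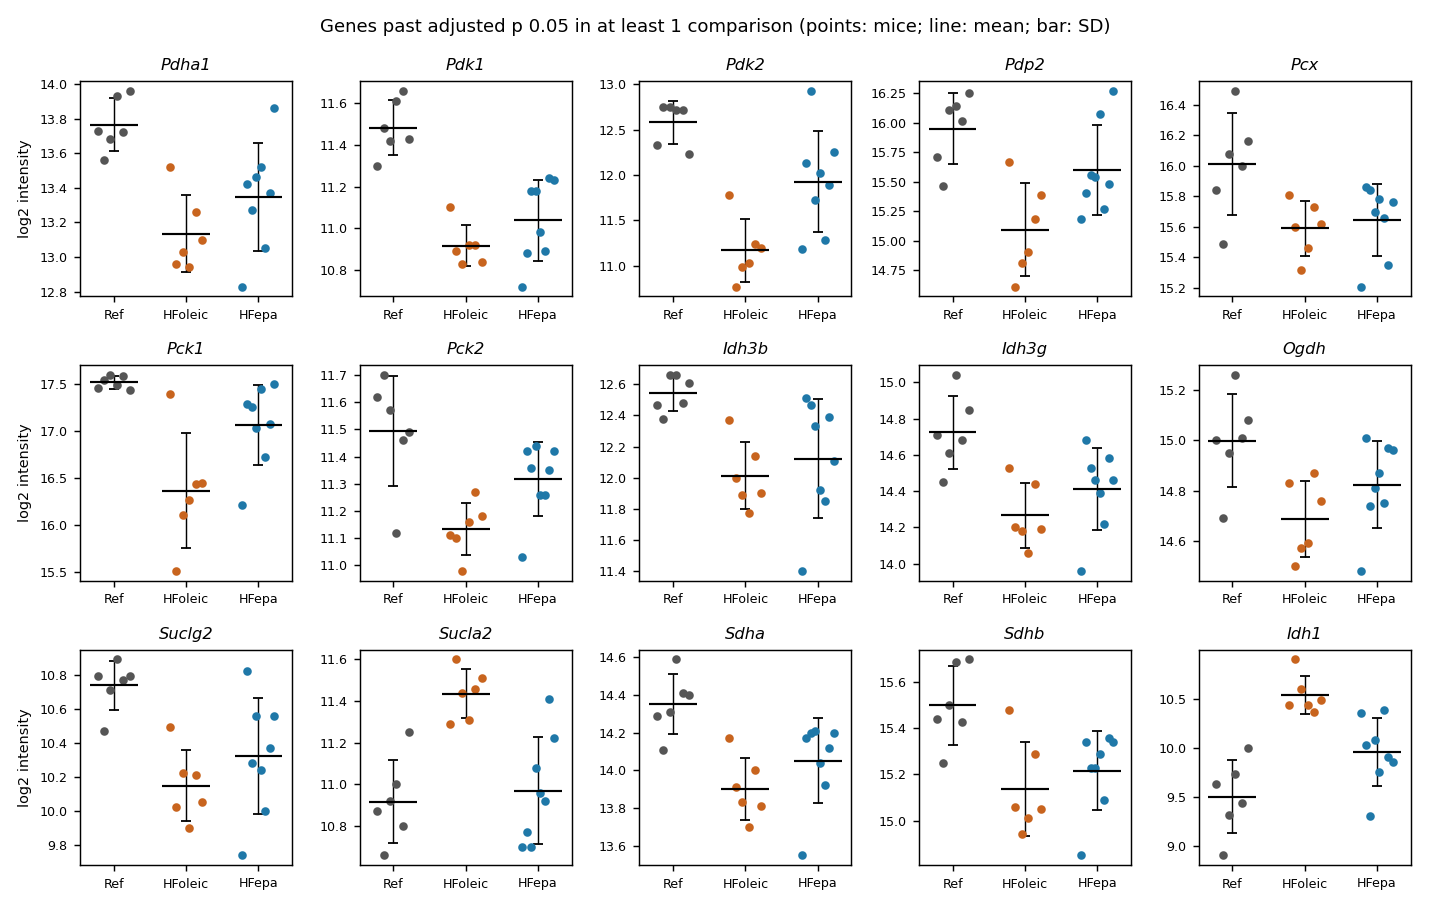
Log2 intensity (y axis) in each mouse (points) of the Ref, HFoleic and HFepa groups (x axis) for the 15 genes with an adjusted p below 0.05; lines are means and bars are SD, and each panel has its own y axis. Sucla2 and Idh1 are higher in all HFoleic mice than in all Ref mice, and the HFepa mice overlap the HFoleic mice for all 15 genes.

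Subunits of 1 enzyme were also compared within each array, which removes a shift that is equal for all genes of a mouse. The difference between 2 log2 levels was formed for the 30 pairs of subunits or isozymes of the same enzyme or step, and its change was tested with an exact two-sided permutation test over mice, with p adjusted over the 90 tests of 30 pairs and 3 comparisons. These tests were added after the values had been seen. For background, the same was done for 25587 pairs of genes that follow each other by name, among which 44.3% had an exact p below 0.05 in HFoleic vs. Ref, 19.1% when HFepa was set against Ref and 17.7% when it was set against HFoleic. Of the 30 pairs, 23, 14 and 12 had an exact p below 0.05 in these comparisons, and 22, 11 and 8 an adjusted p below 0.05. The last 2 counts changed when single mice were left out. The 8 became 3 without HFoleic 4, 5, 6 or 8, 4 without HFepa 7, 5 without HFepa 5 and 12 without HFoleic 1. The 11 became 3 without Ref 3, 4 without Ref 6 or HFepa 1, 6 or 7, 5 without Ref 4 or 5, 6 without Ref 2, HFepa 4 or HFoleic 4, 5, 6 or 8, and 7 without HFepa 8. HFoleic mice are not part of HFepa vs. Ref, so leaving them out changed that count only through the adjustment over all 90 tests. Leaving out a compared mouse also leaves fewer arrangements of the labels. These counts therefore do not show that a result rests on 1 mouse. For HFoleic vs. Ref, 17 to 23 pairs passed without 1 mouse. The groups did not overlap for 14, 1 and 1 of the 30 pairs, beside 14.2%, 1.01% and 0.418% of the background pairs. Pairs that hold the same gene are not independent of each other.

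Pdha1 minus Pdhb, the balance of the E1 subunits, was -0.46 ± 0.19 (SD) in Ref, -1.10 ± 0.11 in HFoleic and -0.75 ± 0.18 in HFepa mice. It fell by 0.64 in HFoleic vs. Ref (exact permutation p = 0.00216, adjusted p = 0.0115). In HFepa vs. Ref it changed by -0.28 (exact permutation p = 0.017, adjusted p = 0.041), a call that held in 12 of 27 alternatives. Between the obesogenic groups it was higher by 0.36 in HFepa mice (exact permutation p = 0.00167, adjusted p = 0.0115), and HFepa mice, at -0.96 to -0.44, were all above HFoleic mice, at -1.26 to -0.97. It was the only pair that separated HFepa from HFoleic mice. This difference was called in all 27 alternatives tried for it, as was that of Suclg2 minus Sucla2 below, while the other pairs named for these groups lost the call in some.

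Suclg2 minus Sucla2, the balance of the beta subunits, moved from -0.18 ± 0.15 (SD) in Ref to -1.29 ± 0.27 in HFoleic and -0.65 ± 0.35 in HFepa mice. The change was -1.11 in HFoleic vs. Ref (exact permutation p = 0.00216) and 0.64 in HFepa vs. HFoleic (exact permutation p = 0.00366, adjusted p = 0.0174). With the mean of all probes of each gene these became -0.47 and 0.33. At the brightest probes this balance changed by -0.47 in HFepa vs. Ref (exact permutation p = 0.0143, adjusted p = 0.0379), called in 14 of 27 alternatives. Suclg1 minus Suclg2 was the pair that separated HFepa from Ref mice (0.35, exact permutation p = 0.00266, adjusted p = 0.0133), called in 26 of 27 alternatives. With the mean of all probes of each gene, this difference was only 0.05 and did not pass (exact permutation test, adjusted p = 0.698). Idh3a minus Idh3g was higher by 0.59 in HFoleic than in Ref mice (exact permutation p = 0.00216). It differed by -0.29 between HFepa and HFoleic mice (exact permutation p = 0.0127, adjusted p = 0.0354), a call that held in 20 of 27 alternatives with adjusted p up to 0.0641. In HFepa vs. Ref it changed by 0.30 (exact permutation p = 0.0167, adjusted p = 0.041), called in 12 of 27 alternatives. Sdha minus Sdhd fell by 0.28 in HFoleic vs. Ref (exact permutation p = 0.00216), from -0.03 to -0.31. In HFepa vs. Ref it changed by -0.18 and did not pass (exact permutation p = 0.0286, adjusted p = 0.0599). Ogdh minus Dlst differed by -0.08 in HFoleic vs. Ref and did not pass (exact permutation p = 0.177, adjusted p = 0.25).

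Among isozymes, Pdk2 minus Pdk3 fell by 1.5 in HFoleic vs. Ref and Idh1 minus Idh2 rose by 1.12, both with an exact permutation p of 0.00216, the smallest that 6 against 6 mice allow. In HFepa vs. Ref they changed by -0.88 (exact permutation p = 0.013, adjusted p = 0.0354) and 0.46 (exact permutation p = 0.0539, adjusted p = 0.0971). Pdk1 minus Pdk3 had the smallest p in HFepa vs. Ref (-0.67, exact permutation p = 0.000999, adjusted p = 0.0115), called in all 27 alternatives. Set against HFoleic mice, HFepa mice had a change of -0.66 in Idh1 minus Idh2 (exact permutation p = 0.00999, adjusted p = 0.0346) and of -0.64 in Pdk1 minus Pdk2 (exact permutation p = 0.0107, adjusted p = 0.0348). These calls held in 21 and 23 of 27 alternatives, with adjusted p up to 0.121 and 0.0641. The 8 pairs called in HFepa vs. HFoleic were adjusted over 90 tests and single genes over all probes, so the counts are not on the same footing.

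**Figure D3:**
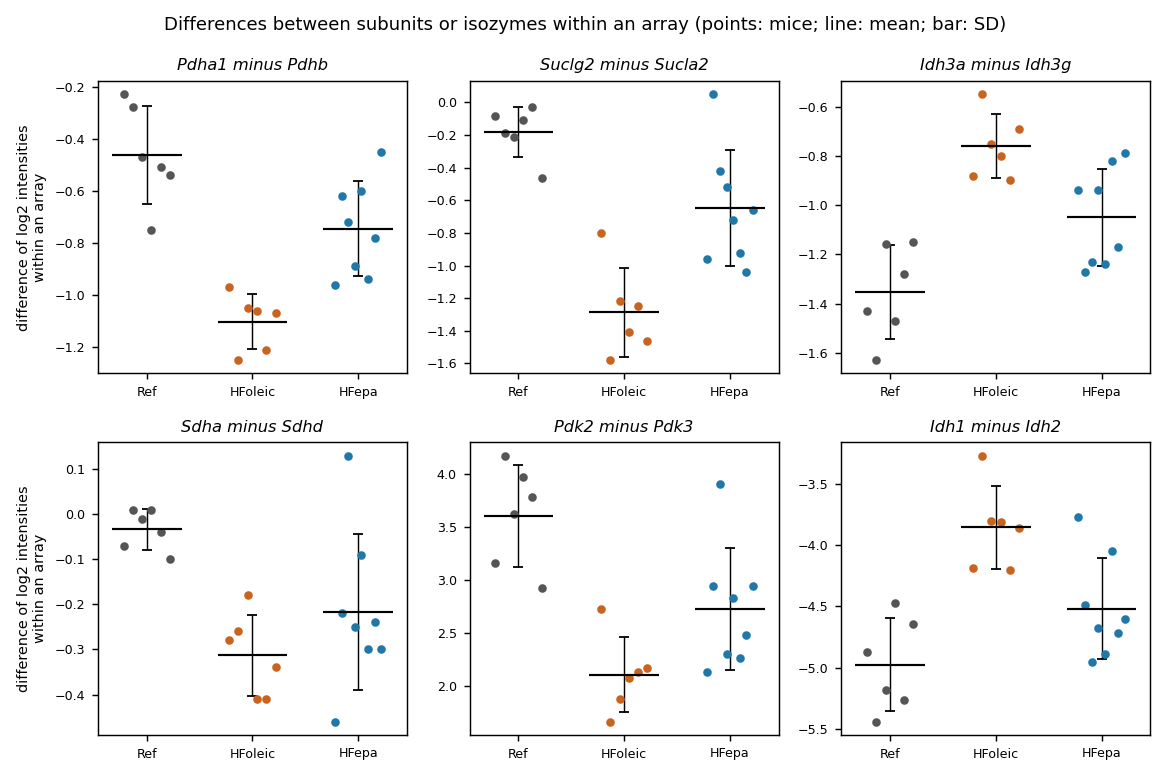
Difference between the log2 intensities of 2 subunits or isozymes within an array (y axis) for each mouse (points) by group (x axis); lines are means, bars are SD, and each panel has its own y axis. HFoleic mice are all outside the Ref range in the 6 pairs drawn, and for Pdha1 minus Pdhb they are also below all HFepa mice.

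The HFepa group was compared with Ref mice for the same 15 genes. Both comparisons use the same Ref mice. Beside those given above, the log2 fold changes in HFepa vs. Ref were -0.35 for Pdp2, -0.36 for Pcx and -0.18 for Pck2. Those of the cycle enzymes were -0.42 for Idh3b, -0.31 for Idh3g, -0.18 for Ogdh, -0.41 for Suclg2, -0.30 for Sdha and -0.28 for Sdhb, with adjusted p from 0.0926 to 0.281. None of these 9 genes passed the test, and a p above the threshold does not show that HFepa and Ref mice were alike.

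Mice within a group differed widely. The Ref mouse with replicate number 3 was the lowest Ref mouse for 27 of the 34 genes, and for all 19 genes of the pyruvate dehydrogenase complex and the cycle enzymes. Its median difference from the Ref mean was -0.28 over the 34 genes. Across all tested genes, 23.5% had this mouse below the other Ref mice. The mice Ref 5 and Ref 7 were each above the other Ref mice for 12 genes, beside 26.5% and 22.3% of all tested genes. Without Ref 3, 15 genes fell in HFoleic vs. Ref, and without Ref 5, 11 fell. Over the whole array 5617 and 5401 probes were then lower, beside 6140 with all mice.

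Of the HFepa mice, number 1 was below all Ref mice for 26 of the 34 genes and number 8 for 2, beside 27.6% and 14.2% of all tested genes. HFepa 6 followed with 13 genes, beside 26.3% of all tested genes. The HFoleic mice were below all Ref mice for 6 to 20 genes, with number 1 the lowest count, beside 16.3% of all tested genes in that mouse and up to 29.9% in the others. Without HFoleic 1, 18 genes fell in HFoleic vs. Ref, and over the whole array 6899 probes were lower, beside 6140 with all mice. Without HFepa 1, the HFepa vs. HFoleic comparison had 2 higher genes, Pdk2 (log2 fold change 0.87, adjusted p = 0.0275) and Pck1 (0.83, adjusted p = 0.0278), and 2 lower ones, Sucla2 (-0.42, adjusted p = 0.0307) and Idh1 (-0.63, adjusted p = 0.0313). The number of probes called in that comparison over the whole array then rose as well, to 1747 lower and 1118 higher of 39390, from 0 and 1 with all mice. Without HFoleic 1, Pck1 (0.92, adjusted p = 0.0271), Pdk2 (0.88, adjusted p = 0.0375) and Sucla2 (-0.49, adjusted p = 0.0354) passed, with 773 probes lower and 889 higher over the whole array.

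**Figure D4:**
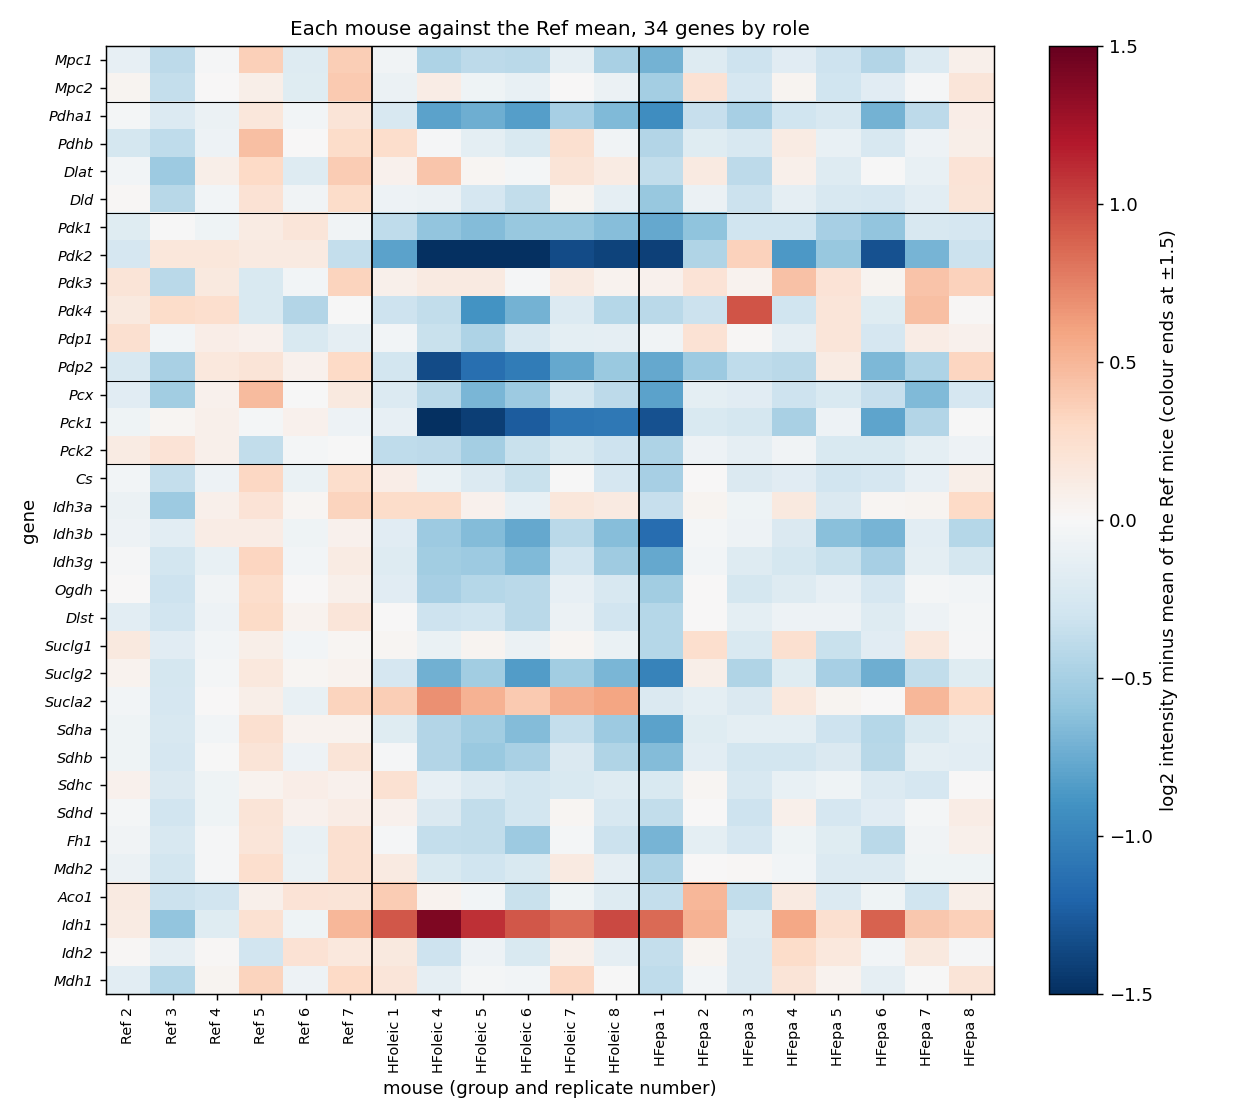
Log2 intensity of each of the 34 genes (rows, grouped by role) in each of the 20 mice (columns, by group) minus the mean of the Ref mice; red is higher, blue is lower, and the colour ends at 1.5 in either direction. The column of HFepa 1 is blue for most genes and that of HFepa 8 is pale, while Pdk2 is blue and Idh1 is red in all HFoleic mice.

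Markers of other cells also changed. Of 9 macrophage markers 7 rose in HFoleic vs. Ref, among them Trem2 by 4.22, Itgax by 3.16 and Cd68 by 2.41 on the log2 scale, while Itgam (0.30) and Cd14 (-0.29) did not pass. The summed intensity of the 9, of which Lyz2 was the most abundant, ran from 63778 to 97579 in Ref mice, 159828 to 354556 in HFoleic mice and 72150 to 368401 in HFepa mice. HFepa 1 had the highest sum of the 20 mice (368401), HFepa 6 the next in its group (300098) and HFepa 8 the lowest of its group (72150). HFoleic 1 had the lowest sum of its group (159828). Not all mice followed this order. Ref 3, the lowest Ref mouse for 27 of the 34 genes, had a sum of 91484, inside the Ref range. HFepa 3 was below all Ref mice for 10 of the 34 genes, beside 15.1% of all tested genes, and had a sum of 97768. Of 9 adipocyte markers, Lipe fell by 1.18 (adjusted p = 0.000517), Pnpla2 fell by 0.42 (adjusted p = 0.0275) and Lep rose by 1.13 (adjusted p = 0.000741), and the summed medians were 1595956.5, 1454754 and 1563950 in Ref, HFoleic and HFepa mice. Adipoq, Cidec and Fabp4 differed by -0.03, 0.02 and 0.02 in HFoleic vs. Ref. Of 6 fibroblast and progenitor markers, the collagen genes Col1a1 and Col3a1 rose by 1.49 and 1.38 in HFoleic vs. Ref (adjusted p = 0.000453 and 0.000815). The other 4 did not pass, among them Pdgfra (-0.05) and Dcn (-0.07), and the summed medians were 140420.5, 174133 and 154768.5 in Ref, HFoleic and HFepa mice. In bulk tissue, fewer cells of a type and less RNA per cell cannot be told apart, and the part of macrophages and fibroblasts in the changes of the 34 genes was not tested.

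The arrays lay on 3 slides, each with mice of all groups. In HFoleic vs. Ref, the median difference over the 34 genes was -0.03, -0.41 and -0.18 on slides 1, 2 and 3, beside -0.02, -0.06 and -0.03 over all tested genes, with 1 to 3 mice per group. On these slides 21, 29 and 25 of the 34 genes were negative. The shift of the 34 genes on slide 1, which held Ref 3 and HFoleic 1, was thus close to that of the whole array. On each slide the 13 genes that fell were negative and the 2 that rose positive, though these genes were called from the same mice. The medians were -0.06, -0.33 and -0.15 in HFepa vs. Ref, beside 0.01, -0.04 and -0.01 over all tested genes. In HFepa vs. HFoleic they were -0.01, 0.16 and 0.07, beside 0.01 on each slide.

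Neighbouring genes of the pathway changed in both directions. Of 45 tested genes that feed, assemble or regulate these enzymes, 9 fell and 10 rose in HFoleic vs. Ref, with a median log2 fold change of -0.01, near the 16.7%, 15.2% and -0.04 over all tested genes. The smallest p belonged to Esrra, a nuclear receptor that drives mitochondrial genes (0.52, adjusted p = 0.00122), Sdhaf4, an assembly factor of succinate dehydrogenase (0.69, adjusted p = 0.00132), and Slc25a10, the dicarboxylate carrier (1.30, adjusted p = 0.00313), all higher in HFoleic. Among 4 assembly factors of succinate dehydrogenase, Sdhaf2, Sdhaf3 and Sdhaf4 rose at their brightest probes while Sdha and Sdhb fell. The probes of Sdhaf2 disagreed, since its other probes gave -0.08 and -0.28 in HFoleic vs. Ref, the latter with an adjusted p of 0.00694. Of 7 transcription regulators, Esrra and Hif1a rose, Nrf1 and Ppargc1a fell by 0.39 and 0.71, and 3 did not pass. The dimmer probes of Esrra and Hif1a did not pass. In HFepa vs. Ref, Ldhd, which oxidises D-lactate to pyruvate, fell by 0.67 (adjusted p = 0.0462). Between HFepa and HFoleic mice the smallest p belonged to Sdhaf2 (-0.32), Slc25a10 (-0.95) and Sdhaf3 (-0.39), and none passed (adjusted p = 0.117, 0.123 and 0.126).

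Promoters were searched for the motifs of 3 regulators of mitochondrial genes on both strands. RefSeq promoters on GRCm38.p6, from 250 bases before to 50 bases after a start, were at hand for 31 of the 34 genes. The ERR motif TNAAGGTCA, bound by the receptor that Esrra encodes, was found in 1 of the 31 and in 1.43% of all 27025 genes with a promoter. The NRF1 motif TGCGCATGC and the ETS motif CCGGAAGT, read by GABPA among others, were also found in 1 gene each, beside 1.72% and 4.31% of all genes. The matches are printed with the bases around them, 5′ to 3′ on the strand of the gene, to show the sites behind these counts, with the motif in capitals.
Sdhd: ggttgtagagTGACCTTGAgccct
Ogdh: ctaggtgttgTGCGCATGCgtaactcaac
Dlst: ggccggtctcACTTCCGGttgctgccgg
They lie at chr9:50603800-50603823 on the minus strand, 36 bases after a start of Sdhd, at chr11:6292532-6292560 on the plus strand, 16 bases before a start of Ogdh, and at chr12:85110823-85110850 on the plus strand, at the start of Dlst. The matches in Sdhd and Dlst read as the reverse complement of the motif. None of the 3 motifs overlapped another there. Ogdh was the only one of these 3 genes that fell at its brightest probe. No match was found in the windows of Pdk2, Pck1, Pdha1, Suclg2, Sucla2 or Idh1.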

How the data were processed

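Cy3-labelled RNA was hybridized on Agilent SurePrint G3 mouse arrays. Per the file headers and notes, the authors extracted spot intensities with Agilent Feature Extraction 10.10.1.1, and the deposited median intensity of each spot is linear and not normalized. A second deposited table holds log2 values, made by the authors with a filter whose rule is not given in the sources used here and with quantile normalization.

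From the spot intensities, controls were left out and marked spots (non-uniform or population outliers) were missing on that array. Spots well above background on at least 6 of 20 arrays were kept. Their log2 values, not corrected for background, were quantile normalized, and replicate spots of each probe were averaged (39390 probes, 24 missing single values, no saturated spot). Of 3 orders of these steps, the one that matched an earlier analysis of these data was kept, and the others are among the alternatives. A gene is reported by its brightest tested probe. Genes are named as in the files, probe positions are mm9, and all 34 symbols are in the RefSeq table.

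One mean per group was fitted to all 20 arrays with lmFit and eBayes of limma 3.58.1 in R 4.3.3, and p was adjusted by Benjamini–Hochberg over the 39390 probes, with a threshold of 0.05. Each array is 1 mouse, and the number of mice limits the precision. Slides were read from the array barcodes and hold all groups. Figures were drawn with matplotlib 3.10.9.

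The genes, the lists of neighbours and markers, the motifs and the rule for naming genes (all 34 accounted for, full values for those past the threshold, 3 neighbours with the smallest p per comparison) were chosen with earlier results of these data known. The markers covered adipocytes, macrophages, brown adipocytes, fibroblasts, endothelium, T cells, mesothelium, epididymis, testis, muscle and liver. Protein sequences were not analysed here. Values of 2 neighbouring genes that this rule names are not reported here.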

Additional observations from a re-analysis of the deposited data

Results flagged for a closer look

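Of 102 groups of values (34 genes in 3 groups of mice), 6 held a mouse far from the others of its group, beside about 1 in 20 expected by chance. HFepa mouse 1 accounted for 4 of them. It was at 11.03 for Pck2, where the other HFepa mice lay between 11.26 and 11.44, at 13.97 for Dlst (others 14.21 to 14.40), at 13.55 for Sdha (others 13.92 to 14.21) and at 16.07 for Mdh2 (others 16.32 to 16.55). HFoleic mouse 1 accounted for 2, at 11.10 for Pdk1 (others 10.83 to 10.92) and at 13.42 for Sdhc (others 12.91 to 13.07). HFepa 1 had the highest summed macrophage intensity of all mice and HFoleic 1 the lowest of its group, and the part of macrophages in these values was not tested.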

How the results depend on the processing

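Results were recomputed under 15 other settings, of which 2 orders of the steps were added after seeing the data, and without each mouse in turn. Of the 15 calls in HFoleic vs. Ref, 11 held under all of them. Pcx (adjusted p = 0.104) and Idh3b (0.103) were lost with the replicate number as a block and Sucla2 with the mean of all probes, and Pcx and Ogdh were lost without single mice. Of the 19 genes not called, Dlst, Fh1, Mpc1, Mpc2, Pdk4, Pdp1 and Sdhc fell under at least 1 setting, Mpc2 only with the mean of all probes (-0.24, adjusted p = 0.025) and Sdhc only without HFoleic 1 (-0.21, adjusted p = 0.0292). The genes that fell numbered 11 to 18 without 1 mouse and 2 rose each time, while 1 rose with the mean of all probes. Over the whole array, 4920 to 6899 probes were lower without 1 mouse, beside 6140 with all mice. In HFepa vs. Ref, 0 fell with the replicate block (Pdk1, adjusted p = 0.0907) or only these 2 groups, 2 fell with the mean of probes, and without 1 mouse 1 to 2 fell and 0 to 1 rose. The log2 fold change of Pdk1 was -0.45 with that block and -0.44 with only 2 groups. Over the whole array, 509 lower and 380 higher probes became 9 and 16 with the replicate block and 76 and 64 with only 2 groups. In HFepa vs. HFoleic, the slide as a block gave 2 lower and 1 higher, array weights 2 and 3, and leaving out 1 mouse 0 to 2 of each. These settings also moved the whole array, to 683 lower and 612 higher probes with the slide block and 2445 and 1864 with array weights. Whether the replicate numbers pair the mice was not settled. Of 16 pairs with the same number, 5 had deviations correlated above 0.1, in a range from -0.59 to 0.56. Pairs with different numbers were not compared. With the replicate block 11 genes fell and 2 rose in HFoleic vs. Ref. Over the whole array 4101 probes were then lower and 3770 higher, beside 6140 and 6008 without the block.

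Neighbouring genes that fell in HFepa vs. Ref numbered 0 with the processed signal, median centring, the replicate block or only 2 groups, and 1 with no filter, the slide block, array weights or the mean of probes; 1 rose with normexp or array weights. In HFepa vs. HFoleic, 5 fell with the slide block and 4 with array weights. Without 1 mouse, 5 to 12 fell and 8 to 14 rose in HFoleic vs. Ref, 0 to 3 and 0 to 4 in HFepa vs. Ref, and 0 to 3 fell in HFepa vs. HFoleic.

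Several differences near 0 changed sign. In HFoleic vs. Ref these were Suclg1 (0.04 with median centring, 0.01 with the replicate block), Aco1 (0.04 with median centring, 0.01 with the slide block and the mean of probes), Mdh1 (-0.03 with the replicate block, -0.06 with the mean of probes), Mpc2 (0.01 with median centring and the slide block) and Pdhb (-0.02 with the processed signal, -0.01 with normexp, -0.08 with the replicate block, -0.03 with the mean of probes). In HFepa vs. Ref they were Idh3a (0.01 with median centring, the authors' table, array weights and averaging first), Sucla2 (-0.05 with the mean of probes), and Pdk4 and Pdp1 (-0.01 with array weights). In HFepa vs. HFoleic they were Cs (0.01), Mdh2 (0.02), Suclg1 (0.03) and Aco1 (0.04) with array weights and Mpc2 (0.07) with the mean of probes. None of the 41 pair differences called changed sign; with the mean of probes 18, 2 and 6 pairs were called in the 3 comparisons, and 18, 8 and 8 with labels permuted within slides. Idh2 in HFepa vs. Ref and Sdhc in HFepa vs. HFoleic, both at 0.00, ranged from -0.06 to 0.05 and from -0.05 to 0.07 over all settings. Without 1 mouse, the ranges of the other differences that crossed 0 were -0.11 to 0.03 (Aco1), -0.04 to 0.11 (Mdh1), -0.11 to 0.04 (Mpc2) and -0.07 to 0.10 (Pdhb) in HFoleic vs. Ref, -0.12 to 0.06 (Idh3a), -0.13 to 0.02 (Mdh1), -0.08 to 0.11 (Pdk4), -0.03 to 0.07 (Pdp1) and -0.01 to 0.12 (Sucla2) in HFepa vs. Ref, and -0.13 to 0.04 (Aco1), -0.06 to 0.03 (Mdh2), -0.01 to 0.10 (Mpc1) and -0.08 to 0.02 (Suclg1) in HFepa vs. HFoleic. The cause was not tested.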

Other observations

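The summed intensity of 5 brown adipocyte markers, Ucp1 among them, reached 34488 in 1 HFepa mouse, beside a group median of 4490 and Ref and HFoleic medians of 5615.5 and 5288.5. Of these markers only Dio2 rose in HFoleic vs. Ref (0.64, adjusted p = 0.013). Of 4 endothelial, 4 T cell, 4 mesothelial, 3 muscle and 4 liver markers tested, none passed in HFoleic vs. Ref, and of 4 testis markers Tnp2 fell by 0.25. Single mice stood apart in these sums. The liver markers, led by Alb, summed to 42751 in HFoleic 6, beside a group median of 3673.5, and the testis markers, led by Prm2, to 4308 in HFoleic 5, beside a group median of 250.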
